A study of Mus musculus with 32 samples.

Results

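Lysosomal enzymes and membrane proteins are described here as a set of 44 mouse genes, chosen by symbol. The set holds 10 cysteine peptidases (cathepsins and legumain), 3 other peptidases, 6 membrane proteins, 10 genes of sphingolipid and ganglioside breakdown, 7 of glycosaminoglycan breakdown, 4 of glycogen, sterol and thioester breakdown, and the 4 MiT/TFE transcription factors. All 44 symbols were found among the 54233 gene rows of the deposited RNA-seq table, and 42 of them were among the 15227 genes that passed the filter on low counts. The 2 that did not pass, Ctsk and Ctss, had at most 6 reads and 2 reads in any sample. Ctsh, Ctso and Tfec passed through their late samples, since at 0 h each had at most 1 read per sample.

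The study followed KH2 mouse embryonic stem (mES) cells as they were driven towards primitive endoderm (PrE), the extraembryonic lineage of the inner cell mass. All samples came from this 1 line, with C57BL/6 as the strain label, and carried the Dox-inducible transgene labelled TRE:GATA6-DSREd2. Bulk RNA was measured at 0, 2, 4, 8, 16, 24, 48 and 96 h, with 4 replicates per time point and 32 samples in all. The 0 h cells had no Dox and grew in 2i + LIF medium, which holds a MEK inhibitor and a GSK3 inhibitor. Every later group was moved to serum + LIF medium with Dox at 1 µg/ml, for 2, 4, 8 or at most 12 h, and the 16, 24, 48 and 96 h cells were then kept in serum medium without Dox. The change of medium and the transgene cannot be told apart in any comparison with 0 h. In these bulk samples, fewer cells of a type and less RNA per cell cannot be told apart either. The labels do not say what separates the replicates, and the study states only in general terms that replicate experiments were independent, so p-values measure the spread between these samples, part of which may be technical.

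The lysosome is the acidic compartment in which proteins, glycans and lipids taken up or turned over by a cell are broken down. Its enzymes are made as secretory precursors and sorted to it, and its membrane carries heavily glycosylated proteins of the LAMP and LIMP kind together with transporters and channels. The MiT/TFE factors (MITF, TFEB, TFE3 and TFEC) are related basic helix-loop-helix leucine zipper proteins that bind E-box sequences in the promoters of many lysosomal genes. Extraembryonic endoderm is known for strong endocytosis and for secretion of basement membrane, and its visceral part for large apical lysosomes.

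The core of the E-box bound by MiT/TFE factors is the palindrome CACGTG, and the stretches below show it in capitals in the promoters of members from 5 of the 6 roles other than the factors (the sixth, of glycogen, sterol and thioester breakdown, has it in Gaa further upstream). RefSeq promoters on GRCm38.p6 (250 bases before to 50 after the annotated start) were at hand for 39 of the 44 members, 47 promoters in all. Each line gives the 120 bases before and the 20 from the start, on the gene's own strand. For Ctsa and Lgmn the promoter of the downstream of 2 annotated starts is shown. The promoter of the upstream start lacks CACGTG in both genes. Tfec is given last, with the GATA-type hexamer TGATAA in capitals.
Lamp1: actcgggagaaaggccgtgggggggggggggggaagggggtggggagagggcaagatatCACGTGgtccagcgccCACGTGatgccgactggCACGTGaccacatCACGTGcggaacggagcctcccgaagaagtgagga
Mcoln1: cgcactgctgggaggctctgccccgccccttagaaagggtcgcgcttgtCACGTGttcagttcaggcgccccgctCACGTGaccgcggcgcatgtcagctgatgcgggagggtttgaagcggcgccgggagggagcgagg
Ctsd: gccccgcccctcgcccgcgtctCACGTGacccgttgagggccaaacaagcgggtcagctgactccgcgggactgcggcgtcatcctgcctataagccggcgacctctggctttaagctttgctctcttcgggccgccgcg
Ctsa: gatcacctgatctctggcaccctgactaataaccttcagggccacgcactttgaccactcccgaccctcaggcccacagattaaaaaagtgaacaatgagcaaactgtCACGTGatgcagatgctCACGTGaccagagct
Lgmn: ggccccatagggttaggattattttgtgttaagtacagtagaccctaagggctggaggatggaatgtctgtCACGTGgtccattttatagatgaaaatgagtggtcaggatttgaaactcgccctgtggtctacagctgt
Arsa: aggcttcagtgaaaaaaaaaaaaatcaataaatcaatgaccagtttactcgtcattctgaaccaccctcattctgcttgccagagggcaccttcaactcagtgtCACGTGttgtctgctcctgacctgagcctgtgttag
Sgsh: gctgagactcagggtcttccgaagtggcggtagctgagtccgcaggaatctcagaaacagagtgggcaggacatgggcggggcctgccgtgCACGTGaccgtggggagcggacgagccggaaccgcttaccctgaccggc
Naglu: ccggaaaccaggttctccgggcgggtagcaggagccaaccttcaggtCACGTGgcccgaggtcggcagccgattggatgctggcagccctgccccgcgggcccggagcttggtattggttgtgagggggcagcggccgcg
Glb1: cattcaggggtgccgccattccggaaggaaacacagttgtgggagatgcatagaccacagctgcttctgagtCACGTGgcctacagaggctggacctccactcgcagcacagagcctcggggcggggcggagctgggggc
Tfec: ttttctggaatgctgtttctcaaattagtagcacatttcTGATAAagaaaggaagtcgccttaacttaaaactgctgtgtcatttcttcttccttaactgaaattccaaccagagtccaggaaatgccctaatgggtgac

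These stretches lie at chr8:13159041-13159180 (Lamp1, plus strand), chr8:3500399-3500538 (Mcoln1, plus), chr7:142387808-142387947 (Ctsd, minus), chr2:164833653-164833792 (Ctsa, plus) and chr12:102439073-102439212 (Lgmn, minus). The others lie at chr15:89477405-89477544 (Arsa, minus), chr11:119355491-119355630 (Sgsh, minus), chr11:101069974-101070113 (Naglu, plus), chr9:114400958-114401097 (Glb1, plus) and chr6:16898422-16898561 (Tfec, minus). Lamp1 carried 4 copies of CACGTG within 61 bases before its start, and Mcoln1 and Ctsa carried 2 each. Over the whole windows of 300 bases, 13 of the 39 members with a promoter (33.3%) had the hexamer in at least 1 promoter: Arsa, Ctsa, Ctsd, Ctsf, Ctsl, Gaa, Gla, Glb1, Lamp1, Lgmn, Mcoln1, Naglu and Sgsh. The same held for 8.09% of all 27025 genes with a promoter and for 11.7% of the 10657 such genes among those tested. Counted by promoter, 27.7% of the 47 member promoters held it against 7.15% of all 32851. The palindrome extended to TCACGTGA was present in 4 members (10.3%), Ctsa, Ctsd, Gla and Mcoln1, against 1.12% of all genes and 2.05% of the tested genes. None of the promoters of Mitf, Tfeb, Tfe3 and Tfec held CACGTG. The GATA-type hexamer AGATAA, on either strand, was in 5 members (12.8%), Arsb, Ctsz, Gla, Npc2 and Psap, against 12.7% of all genes and 7.84% of the tested genes. TGATAA was in 6 members (15.4%), Ctsz, Ids, Mitf, Tfe3, Tfec and Tpp1, against 10.4% of all genes and 5.15% of the tested genes. Leaving out the MiT/TFE factors, 3 of 35 members (8.57%) held TGATAA. A match describes these letters only, and no binding data were used here.

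Levels of a gene are normalized counts, that is, its reads over the size factor the authors set for each sample. The samples held between 3190108 and 12301732 reads on genes. Changes are log2 fold changes of the normalized count + 1 with their standard error (SE), and a gene was called at an FDR below 0.1 in limma fitted over all 32 samples and adjusted over all 15227 genes. Per-length levels are TPM values (transcripts scaled to a common total per sample), computed with the summed exon length of each gene. Replicates 1 and 2 stood apart from replicates 3 and 4 at every time point, although the labels name no such sets. The 7 PrE markers, with Gata6, Gata4 and Sox17 among them, summed to 47.6 to 77.4 normalized counts at 0 h and to 32581 to 37467 at 96 h, while the 6 pluripotency markers fell from between 27924 and 29355 to between 3345 and 4009. Of 7 macrophage and osteoclast markers, cell types rich in cathepsins, none was above 3 reads in any 0 h sample and 2 were at 96 h. Their sum was 3.22 to 7.55 at 0 h and 46.3 to 59.0 at 96 h, of which Csf1r made up 44.2 ± 5.18 (SD, n = 4). Ptprc, the defining leukocyte marker, was at 0 reads in every 24 h and 48 h sample and at 1 read at most at 96 h.

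The set as a whole showed little net change up to 16 h and a broad rise afterwards. At 2 h, 5 of the 42 tested members were higher than at 0 h and 8 were lower, against 22.2% and 22.6% of all tested genes. At 4 h the counts were 6 higher and 12 lower (24.7% and 23.8% of all genes), at 8 h 12 and 12 (26.3% and 22.8%), and at 16 h 11 and 11 (28% and 25.3%). Up to 16 h the shares of members called were thus near or below those of all genes. At 24 h, 24 members were higher and 9 lower, where the shares over all genes were 31.2% and 30.7%. At 48 h 36 were higher and 2 lower against 36.1% and 37.3%, and at 96 h 35 were higher and 3 lower against 38% and 38.5%. The median log2 fold change of the tested members was -0.11 at 2 h, -0.15 after 8 h, 0.08 after 16 h, 0.39 after 24 h, 1.18 after 48 h and 1.12 by 96 h, while the median over all genes lay between -0.03 and 0.01 at every time point. These comparisons share the 0 h samples. The members higher at 48 and 96 h include Ctsh, Ctso and Tfec, whose rise followed from passing the filter through late samples alone.

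A change of 4-fold or more with a call was found for 10 members higher and 1 lower at 48 h, and for 11 higher and 1 lower at 96 h. Over all genes the shares were 8.48% higher and 7.09% lower at 48 h, and 9.28% higher and 10.3% lower at 96 h. The members that rose by 4-fold at both times were Arsa, Ctsh, Ctsl, Ctsz, Galns, Lgmn, Lipa, Naglu and Tfec. Ctso did so at 48 h by its fitted value, which depends on the pseudocount (its bound against the floor of 3 reads was 3.55-fold), and Cd63 and Sgsh did so at 96 h, and the member that fell was Mitf at both times. Ctsh, Ctso and Tfec passed the filter only through their late samples, so their place in these counts followed from the filter. In the plot of calls and of the summed level, the members called higher separate from the share of all genes from 24 h on. The count at 24 h is the less stable, with 18 to 23 members higher when 1 replicate was left out. With the replicate sets averaged, Asah1, Cd63, Galc, Gla, Gusb, Hexa, Naglu and Neu1 lost their call at 24 h (limma, adjusted p from 0.14 to 0.24).

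**Figure D1:**
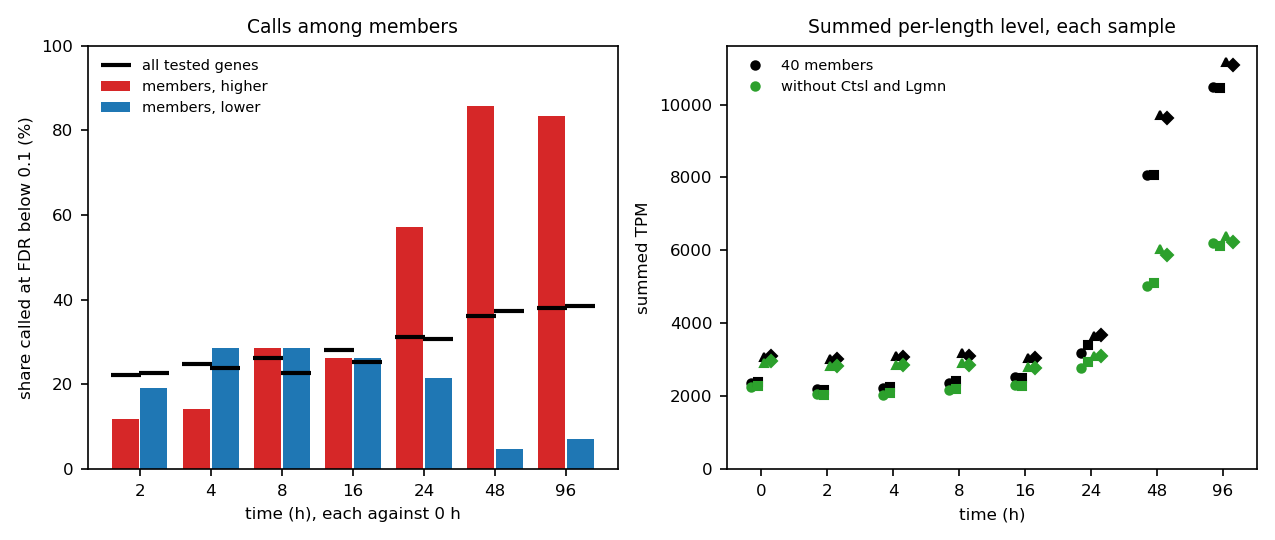
Left, percent of the 42 tested members called higher (red bars) or lower (blue bars) than at 0 h at each time point in hours, with black dashes for the percent of all 15227 tested genes. Right, summed TPM of the 40 enzymes and membrane proteins in each sample (black) and without Ctsl and Lgmn (green), with marker shapes for replicates 1 to 4 (circle, square, triangle, diamond). The bars for higher members reach 36 and 35 of 42 at 48 and 96 h, and every sample at 48 and 96 h lies above every earlier one.

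The interval from 24 to 48 h held most of the rise. Between these times 37 members were higher and 0 lower, against 29.8% and 27.8% of all genes. At an unadjusted p below 0.05 the number lower was also 0, as it was in limma-voom. From 48 to 96 h the direction split, with 14 members higher and 9 lower, against 27.3% and 27.2% of all genes. Against the 2 h samples, which were already in serum medium with Dox, 37 members were higher at 48 h and 1 lower (Mitf), against 36.9% and 38.3% of all genes. The median log2 fold change of 48 h over 2 h was 1.19.

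Per length, the 40 enzymes and membrane proteins together made up 2735 ± 416 TPM at 0 h (SD, n = 4), 2783 ± 306 after 16 h, 3481 ± 226 after 24 h, 8860 ± 924 after 48 h and 10794 ± 379 by 96 h. The ranges at 48 h (8054 to 9701) and 96 h (10448 to 11163) did not overlap with each other or with any earlier group, the highest of which was 3671 at 24 h. As a share of all reads on genes, the same members went from 0.306% at 0 h to 0.990% at 48 h and 1.14% at 96 h. Composition changed as well as size. Lamp1 and Psap led at 0 h with 18.4% and 17.0% of the summed TPM, whereas Ctsl and Lgmn held 2.40% and 2.68%. At 96 h Ctsl held 22.2% and Lgmn 19.9%, with Lamp1 at 15.3% and Psap at 7.32%. Among all genes, Ctsl moved from rank 3115 by TPM at 0 h to rank 36 at 48 h and rank 30 at 96 h, and Lgmn from rank 2779 to 64 and 36.

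Every tested member is drawn by role in the map of log2 fold changes.

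**Figure D2:**
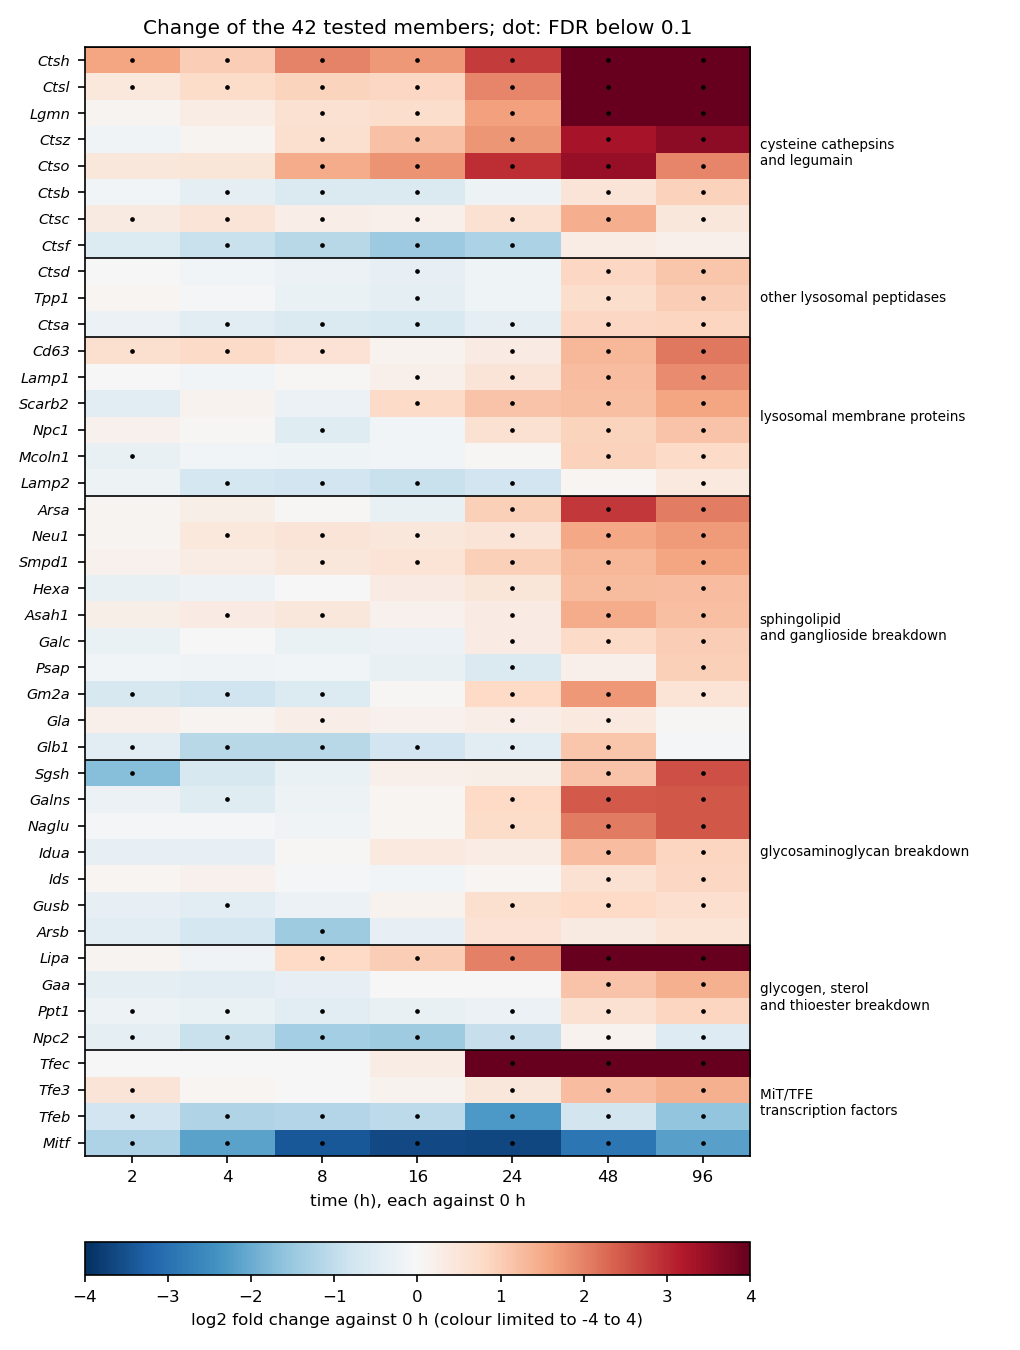
Log2 fold change of each of the 42 tested members (rows, grouped by role and ordered by the change at 96 h) at each time point in hours against 0 h (columns), with red for higher, blue for lower, the colour limited to -4 to 4 and a dot where the FDR was below 0.1. Dark red fills the top rows of the cysteine peptidases, Lipa and Tfec at 48 and 96 h, and Mitf is blue at every time point. The values of Ctsh, Ctso and Tfec depend on the pseudocount, since these genes had at most 1 read per sample at 0 h.

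The cysteine cathepsins and legumain, endopeptidases and exopeptidases of the lysosome, rose most among the roles by median. Of 10 listed, 8 were tested, and 7 were higher and 0 lower at 96 h, against 38% and 38.5% of all genes. The median log2 fold change was 2.78. Ctsh and Ctso are among the 7. They passed the filter only through their late samples, so their rise followed from the filter and adds no support to this rank. Ctsl (cathepsin L, chr13:64359337-64370890, minus strand), a broad endopeptidase, was among the first to move. Its normalized counts at 0 h were 992, 943, 993 and 961 in replicates 1 to 4. At 24 h they were 3469, 3707, 3891 and 4124, and at 96 h 37850, 38231, 40247 and 42885. No sample of a later time point fell as low as the 0 h samples, and the 48 and 96 h samples lay far above the 24 h ones. The log2 fold change against 0 h was 0.42 ± 0.08 at 2 h (SE, adjusted p = 0.00017), 1.96 ± 0.08 at 24 h, 5.02 ± 0.08 at 48 h and 5.35 ± 0.08 at 96 h (adjusted p = 8.3e-30), the last a 40.9-fold difference. The exons of Ctsl overlap those of the predicted gene Gm49230 on the same strand, so reads there could be counted to either or to neither.

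Lgmn (legumain, chr12:102394084-102439813, minus strand) cleaves after asparagine and processes cathepsins to their mature forms. It had 348, 327, 491 and 410 normalized counts at 0 h, 6496, 6278, 8043 and 8208 after 48 h, and 11598, 11627, 13921 and 14084 by 96 h. The 3 groups did not overlap, and replicates 1 and 2 lay below replicates 3 and 4 in each. The log2 fold change was 0.61 ± 0.19 at 8 h (adjusted p = 0.0089), 4.21 ± 0.19 at 48 h and 5.03 ± 0.19 at 96 h (adjusted p = 2.1e-20), and the step from 48 to 96 h was 0.82 ± 0.19 (adjusted p = 0.00058). Ctsz, a carboxypeptidase, had 360, 324, 282 and 264 normalized counts at 0 h and 3645, 3548, 3773 and 3819 at 96 h. It rose earlier than most members, with log2 fold changes of 0.65 ± 0.11 at 8 h, 1.16 ± 0.11 after 16 h and 1.76 ± 0.11 after 24 h, and reached 3.59 ± 0.11 by 96 h (adjusted p = 2.6e-22). The exons of Ctsz overlap those of Nelfcd on the other strand.

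Ctsh, an aminopeptidase, was at 1 read or 0 in each 0 h sample and at 287, 300, 321 and 321 normalized counts at 96 h. Against a floor of 3 reads per library its level was at least 34.7-fold higher at 48 h and at least 86.2-fold higher at 96 h. Ctso, a little-studied cathepsin, also started from at most 1 read and reached 12.7 ± 4.82 normalized counts at 48 h (SD, n = 4), at least 3.55-fold above the floor, and 3.68 ± 1.49 at 96 h. Ctsc (dipeptidyl peptidase I), which activates serine proteases of granules, was higher at every time point and highest at 48 h. Its mean was 659 ± 30.1 at 0 h, 1802 ± 134 after 48 h and 915 ± 87.3 by 96 h, and its fall from 48 to 96 h had a log2 fold change of -0.98 ± 0.07 (adjusted p = 5.7e-13). Ctsb went from 1796 ± 149 at 0 h down to 1205 ± 189 at 8 h and up to 3404 ± 169 at 96 h. Ctsf fell to 29.2 ± 9.40 at 16 h from 81.5 ± 27.1, and at 96 h it was at 91.3 ± 19.7 and did not pass the test against 0 h (adjusted p = 0.6). Ctss, a cathepsin of antigen-presenting cells, and Ctsk, the collagenase of osteoclasts, stayed at or near the floor throughout.

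The 9 enzymes drawn by sample share the late rise but not its timing.

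**Figure D3:**
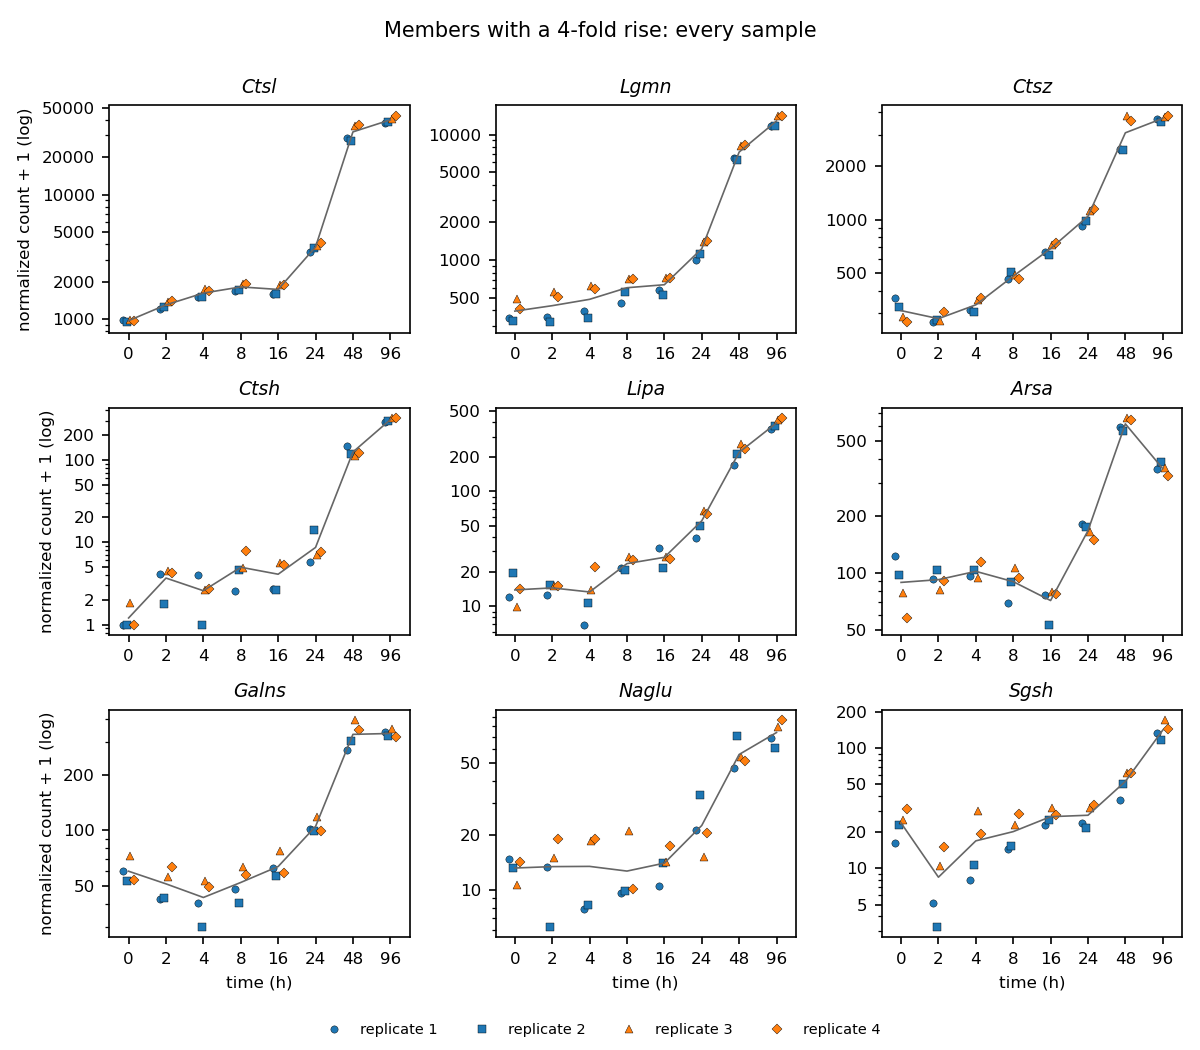
Normalized count + 1 (log axis) of 9 of the members that rose by 4-fold or more at 48 or 96 h, by time in hours, with 1 point per sample (blue for replicates 1 and 2, orange for replicates 3 and 4) and a grey line through the means. Ctsz climbs from 8 h, Ctsl, Lgmn and Lipa rise steeply between 24 and 48 h, and Arsa falls back from a mean of 612 at 48 h to 354 at 96 h.

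The other peptidases moved less and later. Ctsd, the aspartic cathepsin, Ctsa, the protective protein of the galactosidase and neuraminidase complex, and Tpp1, a tripeptidyl peptidase, were all lower at 16 h than at 0 h and all higher at 48 and 96 h. Their median log2 fold change was -0.35 at 16 h and 0.99 at 96 h. Over all genes 25.3% were lower at 16 h, and 36.1% and 38% were higher at 48 and 96 h. Ctsd had 1041, 905, 1152 and 1073 normalized counts at 0 h and 2066, 1819, 2615 and 2643 at 96 h, with no overlap and a log2 fold change of 1.12 ± 0.12 (adjusted p = 2.2e-09). The smallest rise was that of Ctsa, 0.85 ± 0.17 at 96 h (adjusted p = 4.7e-05).

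All 6 lysosomal membrane proteins were higher at 96 h, against 38% of all genes, with a median log2 fold change of 1.36. Cd63, a tetraspanin of late endosomes and lysosomes, rose most. It had normalized counts of 1010, 781, 675 and 646 at 0 h, 1788, 1698, 2287 and 2057 after 48 h, and 3147, 3062, 3399 and 3636 by 96 h, and the 3 groups did not overlap. On the log2 scale its fold change was 0.63 ± 0.12 at 2 h (adjusted p = 9.9e-05), 0.31 ± 0.12 at 24 h and 2.11 ± 0.12 at 96 h (adjusted p = 5.9e-16). The 24 h value was -0.11 in replicates 1 and 2 and 0.74 in replicates 3 and 4, and with the sets averaged it did not pass the test (adjusted p = 0.19). Lamp1 (chr8:13159161-13175338, plus strand), the major glycoprotein of the lysosomal membrane and the member with 4 E-box cores, went from 3084 ± 150 at 0 h to 7323 ± 1231 at 48 h and 11327 ± 621 at 96 h, where its log2 fold change was 1.88 ± 0.09 (adjusted p = 1.8e-17). It was the member with the highest TPM at 0 h (499 ± 44.2), and at 96 h it had 1655 ± 73.9 TPM.

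Lamp2, the paralogue that also serves chaperone-mediated autophagy, gave the smallest rise of this role. Its normalized counts were 814, 793, 1167 and 988 at 0 h, 501, 494, 499 and 529 after 16 h, and 1187, 1238, 1150 and 1264 by 96 h. The 16 h samples all lay below the 0 h ones, and the 96 h samples overlapped with them through replicate 3. Its log2 fold change was -0.88 ± 0.13 at 16 h (adjusted p = 1.4e-06) and 0.38 ± 0.13 at 96 h (adjusted p = 0.0092), and in replicates 3 and 4 alone the latter was 0.17 (adjusted p = 0.075). Scarb2, the receptor that carries glucocerebrosidase to lysosomes, differed between the sets at 0 h, with 346 and 376 normalized counts in replicates 1 and 2 and 137 and 130 in replicates 3 and 4. At 96 h it had 677, 679, 674 and 631, above all 0 h samples, and its log2 fold change was 0.91 in replicates 1 and 2 and 2.28 in replicates 3 and 4. Mcoln1, the lysosomal calcium channel TRPML1, was higher by 0.91 ± 0.11 at 48 h and 0.76 ± 0.11 at 96 h. Npc1, the cholesterol transporter of the lysosomal membrane, was higher by 1.13 ± 0.14 at 96 h after a dip of -0.49 ± 0.14 at 8 h.

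In sphingolipid and ganglioside breakdown, 9 of 10 members were higher at 48 h, against 36.1% of all genes. At 96 h 8 were, against 38%. None was lower at either time, compared with 37.3% and 38.5% of all genes. Arsa (arylsulfatase A, chr15:89472476-89477425, minus strand), which removes sulfate from sulfatide, rose most. Its normalized counts were 121, 96.5, 76.6 and 56.7 at 0 h, 589, 560, 657 and 643 after 48 h, and 352, 384, 359 and 322 by 96 h. The groups did not overlap, and the 96 h samples lay between the other two groups. The log2 fold change was 2.84 ± 0.16 at 48 h (adjusted p = 7.3e-16) and 2.05 ± 0.16 at 96 h, and the fall between them was -0.79 ± 0.16 (adjusted p = 0.00016).

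Other members of the role also came back after 48 h. From 48 to 96 h, 5 of its 10 members were lower (Gla, Glb1, Arsa, Asah1 and Gm2a) and 1 was higher (Psap), against 27.2% of all genes lower and 27.3% higher. Gm2a, the activator protein that presents GM2 ganglioside to hexosaminidase, had 138 ± 30.3 normalized counts at 0 h, 455 ± 75.8 after 48 h and 204 ± 54.7 by 96 h. The difference from 0 h at the last time point had a log2 fold change of 0.55 ± 0.22 (adjusted p = 0.025), with 1.08 in replicates 1 and 2 and 0.01 in replicates 3 and 4, and it did not pass with the sets averaged (adjusted p = 0.17). Glb1 (beta-galactosidase) had 560, 493, 767 and 706 normalized counts at 0 h, 247, 235, 339 and 338 after 8 h, 1378, 1293, 1305 and 1390 after 48 h, and 633, 637, 523 and 609 by 96 h. It fell below all 0 h samples, rose above all of them and came back among them, with log2 fold changes of -1.12 ± 0.17 at 8 h (adjusted p = 3.2e-06), 1.11 ± 0.17 at 48 h (adjusted p = 1.2e-06) and -0.05 ± 0.17 at 96 h (adjusted p = 0.79). The last value was 0.27 in replicates 1 and 2 and -0.38 in replicates 3 and 4. The exons of Glb1 overlap those of Tmppe on the same strand.

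Psap encodes the precursor of the saposins, activators of several of these hydrolases. It was the second member by TPM at 0 h (477 ± 168), with 2221, 2160, 3741 and 3866 normalized counts, so that the sets differed by more than most later changes. At 96 h it had 5672, 5582, 5600 and 5281, above every 0 h sample, with a log2 fold change of 0.94 ± 0.25 (adjusted p = 0.0016). Within the sets this was 1.36 and 0.52. The acid ceramidase Asah1, the sialidase Neu1, the hexosaminidase subunit Hexa, the sphingomyelinase Smpd1 and the galactosylceramidase Galc were higher at both 48 and 96 h, with log2 fold changes at 96 h from 0.99 (Galc) to 1.70 (Neu1). Gla, the alpha-galactosidase, did not pass the test at 96 h, with 235 ± 14.2 normalized counts at 0 h and 245 ± 20.05 at 96 h (log2 fold change 0.05 ± 0.10, adjusted p = 0.65).

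Glycosaminoglycan breakdown rose late. Of its 7 members 1 was lower at 2 h, 2 at 4 h and 1 at 8 h, with medians of -0.32, -0.46 and -0.21. These counts lie near the shares of all genes lower at these times, 22.6%, 23.8% and 22.8%. None was higher before 24 h, where between 22.2% (2 h) and 28% (16 h) of all genes were. At 24 h 3 were higher, against 31.2% of all genes. At 96 h 6 were higher and 0 lower, against 38% and 38.5%, with a median log2 fold change of 0.87. Sgsh (sulfamidase, chr11:119343425-119355536, minus strand), which removes N-linked sulfate from heparan sulfate, was lower at first, and its fold change at 96 h was close to those of Galns and Naglu. Its normalized counts were 15.2, 21.7, 24.2 and 30.2 at 0 h, 4.16, 2.27, 9.38 and 13.95 after 2 h, and 132, 117, 169 and 143 by 96 h. The 2 h samples all lay below the 0 h samples and the 96 h samples all above them, with log2 fold changes of -1.70 ± 0.37 (adjusted p = 0.00046) and 2.59 ± 0.37 (adjusted p = 2.6e-07). Galns, which desulfates keratan sulfate, went from 59.1 ± 9.03 at 0 h to 330 ± 53.4 after 48 h and 333 ± 16.1 by 96 h, a log2 fold change of 2.49 ± 0.17. Naglu, the N-acetylglucosaminidase of heparan sulfate, went from 12.2 ± 1.83 to 54.8 ± 10.3 and 72.7 ± 11.0, a log2 fold change of 2.48 ± 0.32 at 96 h. Idua, Ids and Gusb were higher at both times, by 0.87, 0.82 and 0.68 at 96 h. Arsb had at most 23 reads in any sample and did not pass the test at 96 h (log2 fold change 0.55 ± 0.51, adjusted p = 0.34).

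Of the 4 members for glycogen, sterol and thioester breakdown, all were called higher at 48 h, against 36.1% of all genes. At 96 h 3 were higher and Npc2 lower, against 38% and 38.5%. Lipa, the lysosomal acid lipase that frees cholesterol and fatty acids, had 11.0, 18.3, 8.87 and 13.2 normalized counts at 0 h, 38.4, 49.4, 67.0 and 62.8 after 24 h, and 349, 371, 418 and 434 by 96 h. The groups did not overlap. Its log2 fold change was 0.80 ± 0.24 at 8 h (adjusted p = 0.009), 2.01 ± 0.24 at 24 h and 4.87 ± 0.24 at 96 h (adjusted p = 2.8e-17), a 29.2-fold difference.

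Npc2, the soluble protein that hands cholesterol to Npc1, was lower at 16 h and again at 96 h. Its normalized counts were 2617, 2093, 2129 and 2130 at 0 h, 791, 798, 883 and 849 after 16 h, 2680, 2500, 2330 and 2344 after 48 h, and 1567, 1536, 1484 and 1615 by 96 h. The 16 h samples were all below the 0 h samples, the 48 h samples overlapped with 0 h, and the 96 h samples were all below it. The log2 fold change was -1.43 ± 0.07 at 16 h (adjusted p = 4.7e-17), 0.14 ± 0.07 at 48 h (adjusted p = 0.066) and -0.53 ± 0.07 at 96 h (adjusted p = 3.6e-08). The call at 48 h was lost with total reads scaling (0.0047, adjusted p = 0.96) and with the sets averaged (adjusted p = 0.22). Npc2 was the enzyme or membrane protein of the set that was called lower at 96 h. Gaa, the acid alpha-glucosidase, was higher by 1.15 ± 0.26 at 48 h and 1.43 ± 0.26 at 96 h, and Ppt1, a palmitoyl-protein thioesterase, by 0.62 ± 0.09 and 0.85 ± 0.09.

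Of the 42 tested members, 19 were called lower than at 0 h at 1 or more of the time points from 2 to 24 h, where the same held for 48.2% of all tested genes. Of the 19, 15 were also called higher at 48 or 96 h, and 13.6% of all tested genes met both conditions. Over the whole course, 40 members had their highest mean at 48 h (14) or 96 h (26), and Mitf and Tfeb had theirs at 0 h. The lowest mean fell at 0 h for 12 members, at 2, 4, 8 or 16 h for 28 and at 24 h for 2. The matching shares of all genes were not computed, so these counts of highest and lowest means describe the members only. Ctsh, Ctso and Tfec passed the filter only through their late samples, so their late highest mean followed from the filter.

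**Figure D4:**
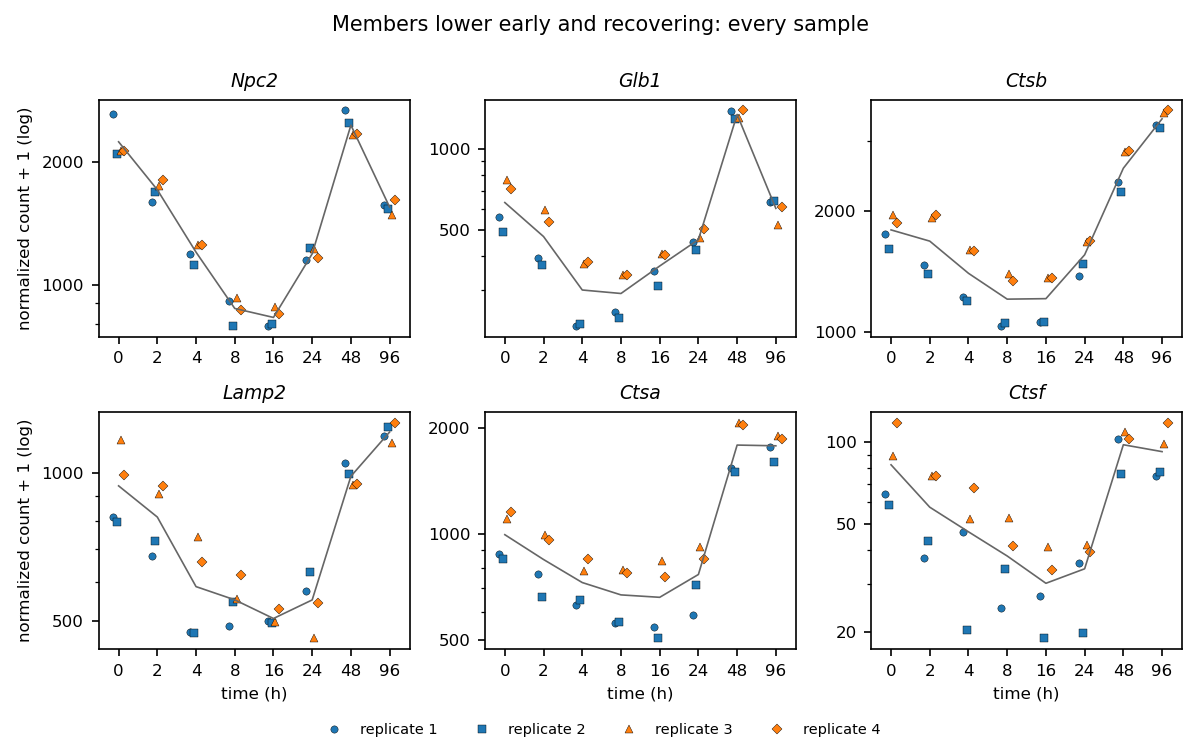
Normalized count + 1 (log axis) of 6 members that were called lower than at 0 h between 4 and 24 h, by time in hours, with 1 point per sample (blue for replicates 1 and 2, orange for replicates 3 and 4) and a grey line through the means. Each curve dips to its lowest mean at 8 or 16 h, and by 96 h Ctsb, Lamp2 and Ctsa stand above their 0 h mean, Ctsf and Glb1 near it and Npc2 below it.

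The 4 MiT/TFE factors changed in opposite directions. Mitf fell most. Its normalized counts were 364, 355, 504 and 516 at 0 h, 170, 156, 198 and 201 after 2 h, and 44.0, 38.4, 35.8 and 43.3 by 8 h. At 48 h they were 53.7, 43.3, 64.2 and 70.2, and at 96 h 115, 96.8, 85.4 and 84.1. All later samples lay below all 0 h samples. The log2 fold change was -1.24 ± 0.22 at 2 h (adjusted p = 3.3e-05), -3.38 ± 0.22 at 8 h, -3.64 ± 0.22 at 24 h (adjusted p = 8.7e-15) and -2.17 ± 0.22 at 96 h (adjusted p = 2.9e-10), and the partial return from 48 to 96 h was 0.72 ± 0.22 (adjusted p = 0.0072).

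Tfeb, the factor best known as a driver of lysosomal genes under starvation, was also lower than at 0 h at every later time point (-0.77 ± 0.15 at 2 h, adjusted p = 0.00011). It had 435, 405, 324 and 297 normalized counts at 0 h, 72.1, 97.6, 65.0 and 62.0 after 24 h, 185, 192, 250 and 244 after 48 h, and 142, 138, 100 and 104 by 96 h. No later sample reached the 0 h range, and the 48 h samples all stood above the 24 h and the 96 h ones. Log2 fold changes of Tfeb were -2.29 ± 0.15 at 24 h (adjusted p = 4.6e-14), -0.74 ± 0.15 at 48 h (adjusted p = 5.7e-05) and -1.58 ± 0.15 at 96 h (adjusted p = 5.6e-11).

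Tfe3 rose. Samples had 66.3, 96.5, 90.3 and 113 normalized counts at 0 h, 201, 188, 227 and 231 after 48 h, and 244, 255, 240 and 231 by 96 h, with log2 fold changes of 1.221 ± 0.13 (adjusted p = 2.8e-09) and 1.42 ± 0.13 (adjusted p = 8.8e-11). All 48 and 96 h samples lay above all 0 h samples. Tfec (chr6:16833373-16898441, minus strand), a member known from macrophages, was at 0 reads in every sample from 0 to 8 h and in 3 of 4 at 16 h. It had 20.4, 16.9, 79.2 and 44.0 normalized counts at 24 h, 249, 219, 204 and 236 after 48 h, and 136, 130, 276 and 321 by 96 h. Against a floor of 3 reads per library at 0 h its level was at least 63.6-fold higher at 48 h and at least 60.6-fold higher at 96 h. Of the 7 macrophage and osteoclast markers, 2 were above 3 reads in some 24 h sample, 3 at 48 h and 2 at 96 h, with sums of 3.603 to 12.5, 10.6 to 20.7 and 46.3 to 59.0 normalized counts. Ptprc was at 0 reads at 24 and 48 h, whereas Csf1r was at 0 reads at 24 h and called higher than at 0 h at 48 h (mean 1.94) and 96 h (mean 44.2, at least 12.4-fold), and their part in the Tfec values was not tested. Replicates 1 and 2 of Tfec fell from 48 to 96 h while replicates 3 and 4 were higher at 96 h. The step from 48 to 96 h did not pass the test.

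Per length, the order of the factors turned over. At 0 h Mitf had 30.6 ± 7.41 TPM and Tfeb 27.7 ± 3.67, within their spread of each other, followed by Tfe3 with 4.31 ± 1.11 and Tfec at 0. At 48 h Tfec (17.0 ± 1.56) and Tfeb (16.0 ± 2.16) were within their spread, above Tfe3 (9.54 ± 0.71) and Mitf (3.89 ± 0.71). At 96 h Tfec had 15.0 ± 6.58, Tfe3 10.2 ± 0.56, Tfeb 8.37 ± 1.62 and Mitf 6.02 ± 0.96, and the spread of Tfec covered the levels of Tfe3. The place of Tfe3 depends on the summed exon length, 9261 bases against 5594 for Tfec and 5669 for Tfeb. In normalized counts, the 48 h samples of Tfec, Tfeb and Tfe3 overlapped, and the 96 h samples of Tfe3 lay within the range of Tfec. Which transcripts were expressed was not tested.

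**Figure D5:**
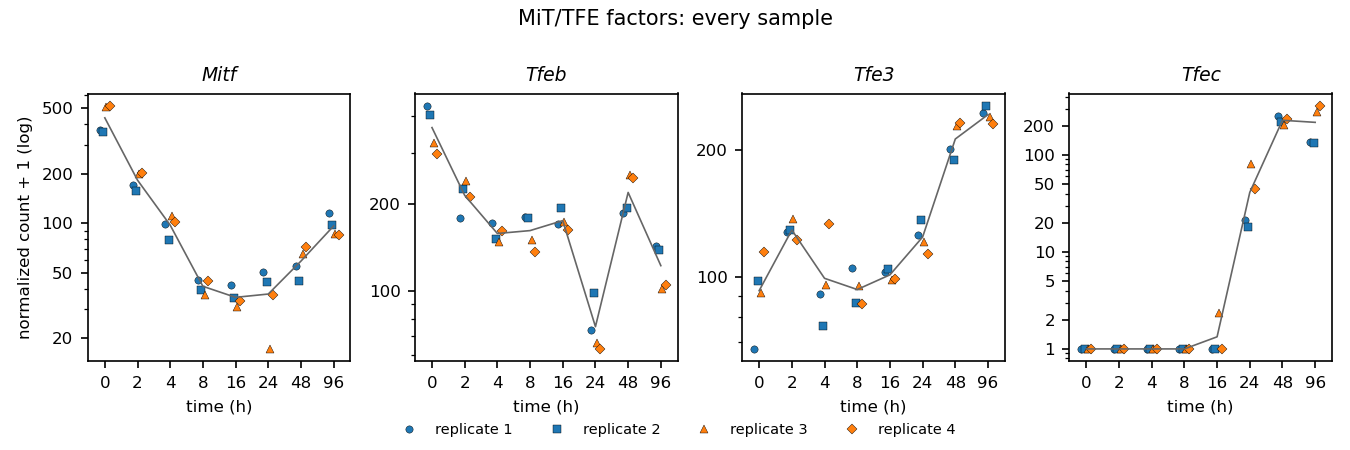
Normalized count + 1 (log axis, a separate scale for each gene) of the 4 MiT/TFE factors by time in hours, with 1 point per sample (blue for replicates 1 and 2, orange for replicates 3 and 4) and a grey line through the means. Mitf and Tfeb lie below their 0 h level at every later time, and Tfe3 is called higher at 2 h and from 24 h on. Tfec leaves 0 at 16 to 24 h and reaches means of 227 at 48 h and 216 at 96 h.

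Members with the E-box core were set beside those without it. Leaving out the MiT/TFE factors, the 13 members with CACGTG had a median log2 fold change of 1.43 at 96 h, ranging from -0.05 (Glb1) to 5.35 (Ctsl), with 10 of 13 called higher. The 20 tested members with a promoter and without it had a median of 0.96, ranging from -0.53 (Npc2) to 4.87 (Lipa), with 18 of 20 called higher. The ranges overlapped almost fully, and Ctsz, Lipa and Cd63 rose by 4-fold without the hexamer in these windows. Over all tested genes 38% were called higher at 96 h. No promoter of Ctsb, Ctsh, Galns, Asah1 or Npc1 was searched.

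The wider lysosomal pathway moved in the same period with smaller changes. Of 117 gene rows on 6 further lists, 101 were tested, of which 66 were higher and 20 lower at 48 h, and 64 and 22 at 96 h, with median log2 fold changes of 0.40 and 0.53. Over all genes the shares were 36.1% higher and 37.3% lower at 48 h and 38% and 38.5% at 96 h, and the counts of each list below stand beside the latter. Among 21 tested further hydrolases, 15 were higher and 5 lower at 96 h. Those with a 4-fold rise included Naaa (an N-acylethanolamine amidase, 2.97 ± 0.33 at 96 h), Acp5 (2.27 ± 0.42), Hgsnat (2.21 ± 0.13) and Pla2g15 (2.19 ± 0.14). Hyal1, a hyaluronidase, fell, by -2.37 ± 0.31 at 96 h. Of 19 tested further membrane proteins 12 were higher and 4 lower at 96 h, with the sialic acid exporter Slc17a5 (2.06 ± 0.24) and the channel Tpcn1 (2.27 ± 0.14) up and Laptm4b (-2.51 ± 0.25) down by 4-fold.

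The V-ATPase, the proton pump that acidifies lysosomes, had 16 of 21 tested subunits higher and 4 lower at 96 h with a median of 0.74. Alternative subunits of the pump went different ways. Atp6v0a1 had 332 normalized counts at 0 h and 2115 by 96 h (log2 fold change 2.67 ± 0.10), and Atp6v0a4 3.12 and 21.1 (2.56 ± 0.36), while Atp6v0e2 had 134 and 25.2 (-2.39 ± 0.17) and Atp6v1c2 11.4 and 2.33 (-2.10 ± 0.50). The values of Atp6v0a4 and Atp6v1c2 depend on the pseudocount, since their lower level was near the floor. Of 20 genes that sort enzymes to lysosomes, 11 were higher and 4 lower at 96 h, none by 4-fold. Among inhibitors of cysteine proteases, 4 of 15 rows passed the filter. Cst3 (cystatin C, a secreted inhibitor of cathepsins) went from 444 ± 48.9 to 3803 ± 399 normalized counts at 96 h (log2 fold change 3.10 ± 0.12, adjusted p = 1.3e-19), and Serpinb6a from 578 ± 109 to 2792 ± 162 (2.29 ± 0.09). Cstb, the cytosolic cystatin B, was higher by 0.59 ± 0.09 at 96 h. Cst13, a further cystatin, went the other way, from 14.3 ± 6.24 normalized counts at 24 h to 1.19 ± 0.92 at 48 h (-2.83 ± 0.41, adjusted p = 1.3e-06) and to 0 reads at 96 h, after at most 1 read at 0 h. The size of its change also depends on the pseudocount.

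Of 16 genes on a list of MiT/TFE regulators, which also holds Gpnmb and Sqstm1, 7 were higher and 5 lower at 96 h. Their median was 0.01, and these counts lie near the shares over all genes (38% and 38.5%). Rragd and Rragb, Rag GTPases that recruit the factors and mTORC1 to lysosomes, fell by 4-fold or more. Rragd had 395 normalized counts at 0 h and 24.1 by 96 h (log2 fold change -3.997 ± 0.21, adjusted p = 5e-17), and Rragb 168 and 21.4 (-2.81 ± 0.46). Gpnmb, a glycoprotein known as an MITF target, had 59.0 normalized counts at 0 h and 0.314 by 96 h (-5.61 ± 0.51). Its 96 h mean is below 1 normalized count, so the size of this change depends on the pseudocount. The 8 placental cathepsins, rodent paralogues of Ctsl that lie in a cluster, did not pass the filter, and none had a mean above 1 normalized count at 0 or 96 h.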

How the data were processed

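RNA-seq was measured in 32 samples, 4 replicates at each of 8 time points, grouped by the time in the sample titles. The authors used cutadapt 2.7 for trimming, HISAT2 2.1.0 for alignment to GRCm38.p6 and featureCounts (Subread 1.6.4) for counting, and deposited log2 values stabilized for variance with DESeq2, with 1 row per gene. The libraries were stranded and selected for polyA, per the labels. Here the transformation was inverted: the lowest value in the table stands for 0 reads, and the result divided by the smallest step in each sample was whole for 100% of values (tolerance 1e-06). Reads carry no molecular identifiers, so counts and floors cover counting error only. The filter kept genes that reached a normalized count of 10 in 4 or more samples. On the scale log2(normalized count + 1), limma 3.58.1 (trend, R 4.3.3) was fitted over all samples, with Benjamini-Hochberg adjustment per comparison and an FDR below 0.1. The fold of 4 follows the threshold in the study's methods. The fit was tested on simulated data with known changes, where 200 of 200 changed genes were recovered and 37 unchanged genes were called. The simulated samples held no replicate sets, and genes with low means were given no change. The simulation therefore does not cover the spread between the sets or genes near the floor. TPM used the union of exons of GENCODE M21, which is also the source of gene coordinates. Of the members, 3 overlap exons of another gene on the same strand and 13 on the other strand. Where no sample of a group had more than 3 reads, the gene counted as at the floor there, and folds against it are lower bounds against 3 reads in each library. Alternatives covered the pseudocount, the filter, the scaling, the fit of 2 groups alone, the FDR, the deposited values without inversion, limma-voom, the replicate block and leaving out replicates, and 3 were added after seeing the data (the replicate set as a factor and each set alone). Members given in full were those called with a 4-fold change at 48 or 96 h, the MiT/TFE factors and the largest rise and fall in each role. Other members are given where they describe the spread of a role. Some genes of the wider pathway are not reported here by name. The members, roles and lists were chosen with earlier results of these data known. Where a count of 0 is printed for a role, it was also 0 at an unadjusted p below 0.05 and in limma-voom. Promoters are RefSeq's on GRCm38.p6, searched on both strands. Python 3.11.15, numpy 2.4.6, pandas 2.3.3 and matplotlib 3.10.9 were used.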

Additional observations from a re-analysis of the deposited data

Results flagged for a closer look

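Among 196 groups of 4 samples (the 27 members given by sample or as mean and SD, at the time points where every sample had more than 3 reads), the highest or lowest sample stood apart from the other 3 in 6 groups by Dixon's criterion at the 95% level. Chance flags about 1 in 20 such groups. Arsa at 16 h was 52.1 normalized counts in replicate 2, below 74.8 to 77.9 in the others. Galns at 24 h was 118 in replicate 3, above 98.2 to 101. Naglu at 8 h was 20.2 in replicate 3, above 8.64 to 9.12, and Lipa at 2 h was 11.4 in replicate 1, below 13.95 to 14.3. Npc2 at 0 h was 2617 in replicate 1, above 2093 to 2130, and Scarb2 at 96 h was 631 in replicate 4, below 674 to 679.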

How the results depend on the processing

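Of 84 member fold changes at 48 or 96 h against 0 h, 72 kept their direction and their side of the threshold under every alternative, and of 535 counts and levels recomputed, 510 stayed within 1.5 times of the value given. At 2 h, 5 members higher became 11 with replicates 3 and 4 alone, and 8 lower became 13 with scaling by total reads or with the replicate set as a factor, 4 with only the 2 groups in the fit or with averaged sets, 17 with replicates 1 and 2 alone and 16 with replicates 3 and 4 alone. At 4 h, 6 higher became 3 with 2 groups or averaged sets and 12 with replicates 3 and 4 alone, and 12 lower became 5 with averaged sets and 21 with replicates 1 and 2 alone. With averaged sets, 12 higher became 7 at 8 h, 11 higher 6 at 16 h, 9 lower 5 at 24 h and, for 96 h against 48 h, 14 higher 8. This alternative leaves 2 values per time point. With replicates 1 and 2 alone 12 lower became 19 at 8 h, and 1 member lower by 4-fold at 96 h (Mitf) became 0. With replicates 3 and 4 alone 11 lower became 17 at 16 h, and 2 lower became 4 at 48 h.

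Scaling by total reads shifted the median gene at 96 h to -0.29, against -0.03 with the authors' size factors (upper quartile scaling -0.22), and moved the calls over all genes from 5779 higher and 5858 lower to 4503 and 7622. Members went from 35 higher and 3 lower to 33 and 5, and other pathway genes lower from 22 to 35. Signs that reversed were those of values that had not passed the test. Lamp2 at 48 h (0.08) was -0.053 with total reads, -0.017 with the upper quartile and -0.18 with replicates 3 and 4 alone, and -0.011 to 0.21 leaving out 1 replicate. With replicates 3 and 4 alone Psap at 48 h (0.21) was -0.081 and Arsb (0.34) -0.31, the latter -0.035 to 0.64 leaving out 1 replicate. At 96 h Ctsf (0.19) was -0.068 and -0.0031 and Gla (0.05) -0.21 and -0.14 with total reads and the upper quartile, Gla being -0.020 to 0.11 leaving out 1 replicate. Glb1 (-0.05) was 0.27 with replicates 1 and 2 alone and -0.20 to 0.11 leaving out 1 replicate. Among calls of single members at 48 and 96 h, those lost under some alternative were Npc2 (0.14) and Gla at 48 h and Lamp2, Gm2a and Gusb at 96 h. Npc2 lost it under 10 alternatives, with adjusted p from 0.066 to 0.96, Lamp2 and Gm2a with either other scaling (0.12 and 0.18, 0.28 and 0.35) and with averaged sets (adjusted p = 0.1 and 0.17), Gm2a also without replicate 1 or 2, and Gm2a, Gla and Gusb with replicates 3 and 4 alone (0.0074, 0.20 and 0.18). The cause of these changes was not tested. Without length, in normalized counts, Ctsl held 38.9% and Lgmn 12.5% of the summed level at 96 h (22.2% and 19.9% in TPM), and the sum was 4.47 times that at 0 h (3.95 times in TPM).

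Deviations from the time point means were correlated between samples that share a replicate number (mean r 0.196, lowest -0.04 of 112 pairs) to the same extent as between samples of a set with unlike numbers (0.196), whereas between sets r was -0.196. Since the deviations were taken from the mean of each time point, the value between sets follows from those within sets and adds nothing to them. With the replicate number as a block, 36 members were higher and 2 lower by 48 h, 35 and 3 by 96 h, and 37 and 0 from 24 to 48 h, while 12 in place of 8 were lower by 2 h. Leaving out 1 replicate gave 34 to 35 members higher at 96 h. Depth limits Arsb, Ctso, Naglu and Lipa, with few reads at 0 h.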
